A study of Mus musculus with 24 samples.

Results

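Mouse fetal head (FH) RNA freed of ribosomal RNA (rRNA) with 2 kits was compared: 4 RiboMinus libraries against 1 Ribo-Zero library, all prepared by RNA-hydrolysis. These are 5 of the 24 samples of the series, of which 16 have a processed file. The members were chosen by tissue, depletion kit and fragmentation as labelled, among samples with a processed file. The sheared and the embryonic stem cell libraries, 3 further lanes labelled as hydrolysed fetal head and a combined fetal head sample were not analysed here.

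Every library came from total RNA of the head of wild-type FVB/N fetuses at 14.5 dpc, and all 5 were hydrolysed before random-primed, strand-less cDNA synthesis. RiboMinus started from 10 µg of RNA, with hydrolysis for 3.5 min, and was applied for 1 round in the preparation named FH1 and for 2 rounds in the preparation named FH2. Both cDNAs were sequenced at Vienna-IMP and at Nijmegen with 36-nt reads, so the 4 RiboMinus libraries are 2 preparations read in 2 locations and not 4 animals. Ribo-Zero started from 5 µg of another RNA sample of the same tissue, with hydrolysis for 4 min and 1 round, and was sequenced at Vienna-CeMM with 51-nt reads. RiboMinus libraries were read on a Genome Analyzer and the Ribo-Zero library on a HiSeq. The kit therefore cannot be told apart from the RNA sample, the sequencing location and machine, the read length and the library fragment size. How many fetuses each RNA came from is not given in the sources used here. The head holds brain, eye, muscle, skeleton, skin and blood together, and in such bulk RNA fewer cells of a type and less RNA per cell cannot be told apart.

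Both kits hybridise probes to rRNA and remove the hybrids on beads, and no step selects for a polyA tail. RNAs without such a tail are therefore read as well: the small nuclear RNAs (snRNAs) of the spliceosome, the small nucleolar RNAs (snoRNAs) that guide rRNA modification, the Y and vault RNAs, the RNA parts of RNase P and RNase MRP, replication-dependent histone mRNAs and unspliced introns.

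The RiboMinus libraries held 1597887 to 2188956 uniquely aligned tags and the Ribo-Zero library 46226046, after 2200005 tags on the mitochondrial chromosome (4.54% of its lines) were left out. Tags matching mitochondrial RNA had been removed by the authors from the RiboMinus libraries only, and these hold 0 such tags. Distinct positions made up 80.1 to 82.3% of the RiboMinus tags and 65.5% of the more deeply sequenced Ribo-Zero tags. The tissue label held: neuron genes such as Stmn2 and Tubb3, lens crystallins, muscle Actc1, the cartilage collagen Col2a1, epidermal Krt5 and the embryonic globin Hbb-y (848 to 1399.8 RPKM in RiboMinus and 1216 RPKM in Ribo-Zero) were present in all 5 libraries. Values below are given in the order FH1 Vienna-IMP, FH2 Vienna-IMP, FH1 Nijmegen and FH2 Nijmegen, followed by Ribo-Zero. They are CPM (tags per 1000000 unique tags outside the mitochondrial chromosome) or RPKM (CPM per kilobase).

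The first question was which classes of RNA the tags came from. Introns of protein-coding genes took 31.4, 32.3, 37.9 and 32.8% of RiboMinus tags and 43.8% of Ribo-Zero tags. Small-RNA genes took 1.14, 2.14, 2.31 and 1.29% of RiboMinus tags and 4.18% of Ribo-Zero tags (exact binomial 95% interval 4.17 to 4.18%). In both classes the Ribo-Zero library lay above all 4 RiboMinus libraries, by 10.2 percentage points over their mean of 33.6% ± 2.9 (SD, n = 4) for introns and by 2.46 points over their mean of 1.72% ± 0.592 (SD, n = 4) for small RNAs. The exact two-sided permutation test of 1 library against 4 gave p = 0.2 for either share, which is the smallest p this test allows. Since the 4 libraries are repeat libraries of 2 preparations, the test and the SD count more samples than there were preparations, and 1 preparation against 2 could not give a p this low. Intervals of this kind cover counting error only, since tags with the same start may be copies of one molecule.

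Exons of protein-coding genes took 56.9, 51, 43.4 and 54.3% of RiboMinus tags and 43.5% of Ribo-Zero tags, so that FH1 Nijmegen and Ribo-Zero were alike and the other 3 libraries lay above them. Tags in introns per tag in exons were 0.552, 0.633, 0.873 and 0.605 with RiboMinus and 1.01 with Ribo-Zero. Exons of long non-coding genes took 0.917 to 1.02% with RiboMinus and 1.47% with Ribo-Zero. Positions outside any annotated gene took 8.63, 12.7, 14.5 and 9.52% with RiboMinus and 5.91% with Ribo-Zero, below all 4.

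Counting each position once, after a random draw of Ribo-Zero tags to the mean RiboMinus depth, changed this picture in part. Introns still separated the kits, at 36.8 to 44.0% against 47.5%. Exons of protein-coding genes took 47.7 to 55.6% against 43.9%, so that Ribo-Zero was then below all 4. Exons of long non-coding genes took 0.859 to 0.887% against 0.945%, 0.0731 points over the RiboMinus mean in place of 0.499. Small RNAs took 0.145 to 0.205% of positions with RiboMinus and 0.425% with Ribo-Zero, 0.252 points over the RiboMinus mean in place of 2.46. The ratio to that mean was 2.45 in place of 2.43. With every tag counted, the RiboMinus share includes AC113316.1, described below (3049 to 9747 CPM against 74.1 CPM). The closeness of the ratios was therefore not read as stability. Unannotated positions took 5.57 to 6.17% against 6.17%, at the upper end of the RiboMinus range, so the excess of unannotated RiboMinus tags sat at few positions.

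**Figure D1:**
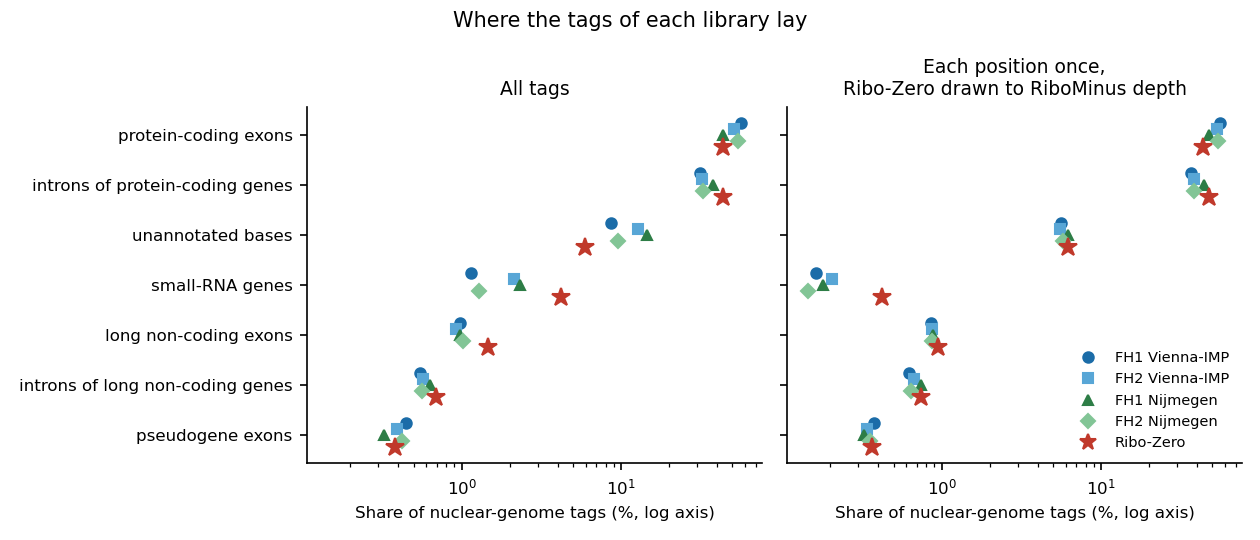
Share of tags outside the mitochondrial chromosome (percent, log axis) in each RNA class for the 4 RiboMinus libraries and the Ribo-Zero library (star), with every tag counted (left) and with each position counted once after a draw of Ribo-Zero tags (right). With every tag counted, Ribo-Zero lies above the 4 RiboMinus points for introns (43.8%) and small RNAs (4.18%) and below them for unannotated bases (5.91%), and on the right the last of these differences is gone.

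For single genes, the Ribo-Zero value was set against the range of the 4 RiboMinus libraries. A gene was called higher when its log2(RPKM + 1) with Ribo-Zero lay at least 1 (a factor of 2) above the highest RiboMinus library, and lower when it lay at least 1 below the lowest. With 1 Ribo-Zero library there is no replicate check, the calls rest on no test, and a fold on this scale understates the change of low genes.

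Small RNAs differed most. Of 5371 small-RNA genes, 293 had a mean of both kits over 1 CPM, and 177 of them (60.4%) were called higher with Ribo-Zero against 14 (4.78%) called lower. The median log2 difference over the 293 was 3.89. In 35 of them no RiboMinus library had a tag. Such genes passed the filter through Ribo-Zero alone and had to differ. So did genes with few RiboMinus tags, such as SNORA4 (0, 0.914, 0 and 0 CPM against 78.9 CPM), whose number was not counted. The counts therefore describe these libraries only. Without the filter, 433 of 1996 genes with a tag were higher and 22 lower, with a median of 0.5. When the differences of the 293 were centred on 3.89, 42 genes were higher and 91 lower. That scale asks which small RNAs differed more or less than the typical small RNA.

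Examples of the genes called higher are shown with their sequence (mm9, read on the gene's own strand), namely the Y RNAs, the U4 and U11 snRNAs and a snoRNA of each family. The Y_RNA genes at chr6:47731623-47731724 (+) and chr6:47738068-47738179 (-) share all 4 flanking genes (Cul1, Ezh2, Pdia4 and Zfp786) with RefSeq's Rny3 and Rny1. They are shown because the same 7 bases, GGTCCGA, in capitals, stand in both and in 0.0931% of all 5371 small-RNA genes on their own strand (0.168% on either).
Y_RNA, 102 bases: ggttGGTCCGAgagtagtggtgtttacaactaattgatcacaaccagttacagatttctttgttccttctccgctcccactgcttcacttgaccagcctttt
Y_RNA, 112 bases: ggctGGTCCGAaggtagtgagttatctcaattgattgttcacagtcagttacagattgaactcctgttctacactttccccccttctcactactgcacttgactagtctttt
The U4 genes at chr5:115939468-115939608 (+) and chr5:115940263-115940403 (+) are near-identical neighbours. Their capitals mark ATTTTTG, the Sm-site-like run found in 1.28% of small-RNA genes on their own strand (2.94% on either) and in 6 of 43 genes named U4.
U4, first copy: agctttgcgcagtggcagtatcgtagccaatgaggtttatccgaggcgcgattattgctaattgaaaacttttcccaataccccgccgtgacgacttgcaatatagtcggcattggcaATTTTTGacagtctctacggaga
U4, second copy: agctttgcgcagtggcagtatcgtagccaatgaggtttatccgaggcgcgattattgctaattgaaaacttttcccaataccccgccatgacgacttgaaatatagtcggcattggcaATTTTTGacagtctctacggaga
U11, at chr4:131825995-131826128 (-), belongs to the minor spliceosome. Snord57, at chr2:130103752-130103823 (+) in an annotated exon of Nop56, is a C/D snoRNA and its D box is in capitals. SNORA84, at chr13:49779670-49779802 (+) in an intron of Iars, is an H/ACA snoRNA and its ACA box is in capitals.
U11: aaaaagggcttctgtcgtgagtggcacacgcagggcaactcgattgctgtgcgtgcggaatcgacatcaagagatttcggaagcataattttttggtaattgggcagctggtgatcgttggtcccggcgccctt
Snord57: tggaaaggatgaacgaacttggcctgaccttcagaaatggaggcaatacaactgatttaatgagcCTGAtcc
SNORA84: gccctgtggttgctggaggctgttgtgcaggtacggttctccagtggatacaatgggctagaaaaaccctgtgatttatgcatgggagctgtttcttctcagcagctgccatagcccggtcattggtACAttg

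Y RNAs bind the Ro60 protein and act in RNA quality control and DNA replication. The 102-base Y_RNA shown above had 2.84, 14.2, 2.5 and 0 CPM with RiboMinus and 5204 CPM with Ribo-Zero. The 112-base Y_RNA had 1.89, 21, 1.88 and 0 CPM with RiboMinus and 1878 CPM with Ribo-Zero. Both lay far above the RiboMinus range, the first by 367-fold over its highest library. All 24 genes named Y_RNA together had 2.34 to 35.6 CPM against 7084 CPM, and these 2 genes were the only ones over the filter. The vault RNA, part of the cytoplasmic vault particle, had no tag in any RiboMinus library and 175 CPM with Ribo-Zero, at least 469-fold higher when the 4 RiboMinus libraries together are given a floor of 3 tags.

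All 17 snRNA genes over the filter were called higher, but 11 of them had no RiboMinus tag and so passed through Ribo-Zero alone. So did both U4 copies, with 1 and 2 RiboMinus tags. The class summed to 12.8, 16.0, 18.8 and 14.5 CPM with RiboMinus and 678 CPM with Ribo-Zero. The first U4 copy shown above had 1 tag in all RiboMinus libraries (0, 0.457, 0 and 0 CPM) and 231 CPM with Ribo-Zero. The second copy had 2 RiboMinus tags (0, 0.914, 0 and 0 CPM) and 169 CPM with Ribo-Zero. Since the copies differ at few bases, tags can be shared out between them only where they differ. A unique 51-nt tag can reach 73.8% of the positions of each copy. A unique 36-nt tag, nearer to the RiboMinus read length, can reach 53.2% of the first and 51.8% of the second.

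Of the other members of the major spliceosome, 6 U1 genes and 3 U5 genes were over the filter and called higher, 4 and 3 of them with no RiboMinus tag, with sums over all genes of the name of 4.22 to 5.48 CPM against 63.5 CPM for U1 and 0 against 42.8 CPM for U5. Genes named U6 summed to 5.2 to 11.3 CPM against 36.7 CPM and genes named U2 to at most 0.473 CPM against 4.93 CPM, with 1 U6 gene and no U2 gene over the filter. In the minor spliceosome, U11 had no RiboMinus tag and 61.4 CPM with Ribo-Zero (at least 165-fold higher), U4atac had at most 1.42 CPM against 42.7 CPM, and the U6atac gene on chromosome 2 had 0 against 16.0 CPM (at least 42.8-fold higher). Genes named 5S_rRNA were within the RiboMinus range, at 0.914 to 5.01 CPM against 3.59 CPM.

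Of 196 snoRNA genes over the filter, 150 were called higher and 0 lower, with sums of 2349.9, 3049, 2102 and 2105 CPM with RiboMinus and 9401 CPM with Ribo-Zero. The H/ACA guides, which direct pseudouridylation, were called higher in 73 of 80 genes named Snora (97 to 319 CPM against 3094 CPM). The C/D guides, which direct 2′-O-methylation, were called higher in 54 of 75 genes named Snord (111 to 362 CPM against 2734 CPM). The small Cajal body RNAs, which guide modification of snRNAs, were called higher in 11 of 20 genes, but their summed level did not leave the RiboMinus range (1454 to 1923 CPM against 1886 CPM). Much of the RiboMinus sum came from Scarna2, which had 1291, 1287, 640.2 and 998 CPM with RiboMinus and 496 CPM with Ribo-Zero, below all 4 without being called. Of the 196 snoRNA genes 23 had no RiboMinus tag and passed the filter through Ribo-Zero alone. They include 12 genes named Snora, 5 named Snord and 4 of the small Cajal body RNAs. Further snoRNA genes with few RiboMinus tags passed in the same way and were not counted.

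Grouped by sequence instead of name, 64 snoRNA genes over the filter carried both a C box (TGATGA) and a D box (CTGA), and 40 of these were called higher with a median log2 difference of 3.36. The 87 with ACA near the 3′ end and without both other boxes had 78 higher calls and a median of 5.30. In the remaining 45 genes 32 were called higher, with a median of 4.52. The match to TGATGA was exact, so Snord57, which lacks it near its start, is among these 45. The remaining group is therefore not free of C/D snoRNAs. The groups differed in length as well, with median lengths of 82, 134 and 93 bases. In the same order 3, 16 and 4 of their genes over the filter had no RiboMinus tag and passed through Ribo-Zero alone. Genes with few RiboMinus tags did so as well. U3, which guides cleavage of the rRNA precursor, had 2.36, 10.5, 51.9 and 4.69 CPM at its gene over the filter with RiboMinus and 501 CPM with Ribo-Zero. Snord57 and SNORA84 had no RiboMinus tag and 13.4 and 12.9 CPM with Ribo-Zero, at least 35.8-fold and 34.5-fold higher.

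Several snoRNAs with RiboMinus tags varied widely among the RiboMinus libraries. Snord22, in Snhg1, had 10.9, 57.1, 2.5 and 3.28 CPM against 838 CPM. Snord15a had 35, 85, 0.626 and 1.87 CPM against 271 CPM, and Snord15b 18.9, 58.9, 0.626 and 1.41 CPM against 363 CPM. In these 3 genes both Vienna-IMP libraries were above both Nijmegen libraries, and Ribo-Zero was above all 4.

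By transcript length, the widest difference was in the middle class, also in the sums, which take in all genes of a class. Small-RNA genes of over 100 to 200 bases had 210 to 744 CPM with RiboMinus and 13736 CPM with Ribo-Zero, with 125 of 143 called higher and a median log2 difference of 5.27. Those over 200 bases had 7487 to 13768 CPM against 27051 CPM, with 7 of 43 called higher, 5 lower and a median of 0.69. Those of up to 100 bases, without the gene AC113316.1 described below, had 315 to 368 CPM against 923 CPM, with 45 of 106 called higher, 6 lower and a median of 2.03. Of the genes over the filter 30, 0 and 5 in this order had no RiboMinus tag. They passed through Ribo-Zero alone, so that they were higher there was fixed. Genes with few RiboMinus tags passed in the same way and were not counted. The classes hold different RNA types, so length was not separated from type. Library fragment size differed between the locations and its part in this was not tested.

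Some long structural RNAs were abundant with both kits. RNase_MRP (RefSeq's Rmrp by all 4 neighbours), which processes rRNA precursors, had 2622, 5509, 5636 and 2848 CPM with RiboMinus and 10231 CPM with Ribo-Zero. The main 7SK gene (Rn7sk), which restrains the elongation factor P-TEFb, had 1862, 3452, 4074 and 2129 CPM with RiboMinus and 7870.2 CPM with Ribo-Zero. Both were above all 4 RiboMinus libraries by less than a factor of 2 and were not called. AC027184.1 (Rpph1, the RNA of RNase P) had 1005, 2095, 991 and 518 CPM against 5546 CPM and was called higher.

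Of the 46 miRNA genes over the filter 3 were called higher and 9 lower. Mir675, processed from H19, was 5.01 to 12.8 CPM with RiboMinus and 93.6 CPM with Ribo-Zero. Tags of 36 or 51 nt are longer than a mature miRNA and so report the precursor or its host transcript. Without AC113316.1 all miRNA genes together had 238 to 296 CPM with RiboMinus and 354 CPM with Ribo-Zero. Lower calls among small RNAs other than AC113316.1 were mostly of few tags. They include mmu-mir-2134-4 (1.87 to 14.6 CPM against 0), mmu-mir-2134-2 (1.87 to 16.0 CPM against 0.0216 CPM), AC140318.1 (2.36 to 4.22 CPM against 0), AC115697.1 (6.62 to 28.2 CPM against 0.173 CPM), AC108409.1 (2.28 to 6.09 CPM against 0.216 CPM), AC152062.1 (5.01 to 15.6 CPM against 1.41 CPM) and Mir433 (1.25 to 4.11 CPM against 0.324 CPM). Of 16 genes named 7SK over the filter 1 was called higher and 3 lower, with a median log2 difference of 0.28. Lower copies in introns of Ncam2 (3.13 to 9.14 CPM against 0.627 CPM) and Zswim5 (1.42 to 7.97 CPM against 0.195 CPM) went opposite to the main 7SK gene. The Ncam2 copy lost its call with positions counted once, and the Zswim5 copy and Mir433 lost theirs with another pseudocount.

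**Figure D2:**
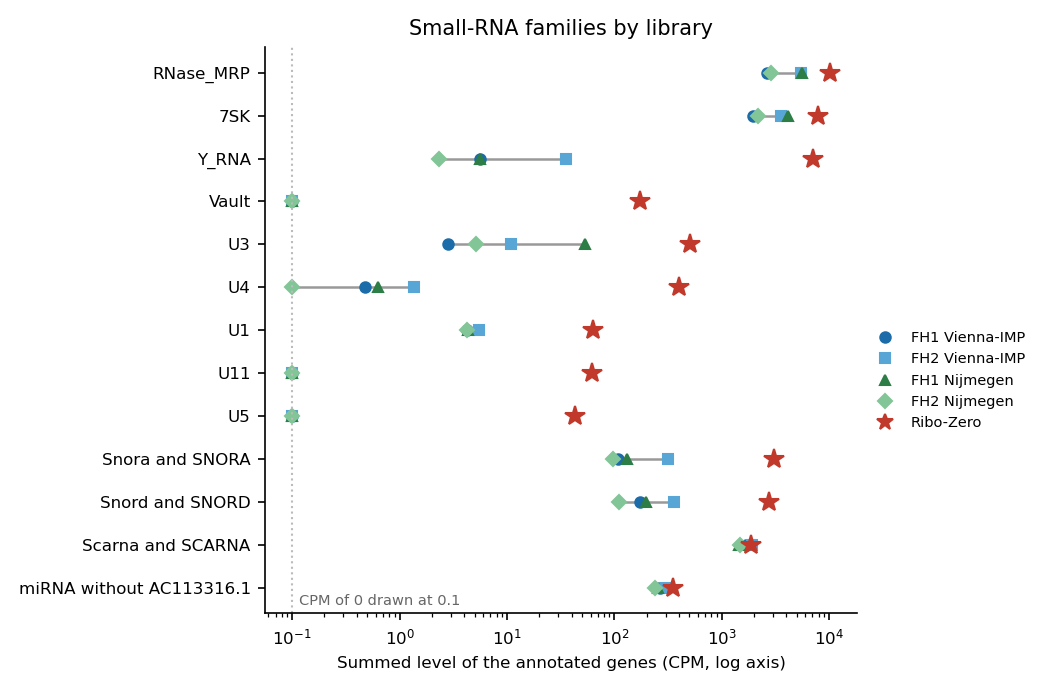
Summed level of the annotated genes of each small-RNA family (CPM, log axis, a CPM of 0 drawn at 0.1) in the 4 RiboMinus libraries (points joined by a grey line over their range) and in the Ribo-Zero library (star). Vault RNA, U11 and U5 have no RiboMinus tag, Y RNAs have 2.34 to 35.6 CPM against 7084 CPM, and the small Cajal body RNAs (1886 CPM) are within the RiboMinus range.

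The reverse pattern, tags found with RiboMinus and nearly missing with Ribo-Zero, was concentrated in few stretches of the genome. In one window of 1 kb on chromosome 11 the RiboMinus libraries had 24709, 56380.3, 72287 and 29151 CPM and the Ribo-Zero library 464 CPM. A window on chromosome 8 had 5664, 10758, 8758 and 8735 CPM against 24.7 CPM. A window on chromosome 5, which covers AC113316.1, had 4758, 9694, 19652 and 11205 CPM against 105 CPM. Capitals mark the span of the tag midpoints in FH2 Vienna-IMP without the outermost 5% at either end, shown with up to 20 bases on each side, on the plus strand of mm9. They are shown because they hold many RiboMinus tags and few Ribo-Zero tags. The first and second lie outside annotated genes, and the third lies in Cdk8.
Chromosome 11, chr11:108873187-108873249: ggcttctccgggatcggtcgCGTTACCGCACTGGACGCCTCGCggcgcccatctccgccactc
Chromosome 8, chr8:15519899-15519944: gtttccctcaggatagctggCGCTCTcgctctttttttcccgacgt
Chromosome 5, chr5:147072631-147072930: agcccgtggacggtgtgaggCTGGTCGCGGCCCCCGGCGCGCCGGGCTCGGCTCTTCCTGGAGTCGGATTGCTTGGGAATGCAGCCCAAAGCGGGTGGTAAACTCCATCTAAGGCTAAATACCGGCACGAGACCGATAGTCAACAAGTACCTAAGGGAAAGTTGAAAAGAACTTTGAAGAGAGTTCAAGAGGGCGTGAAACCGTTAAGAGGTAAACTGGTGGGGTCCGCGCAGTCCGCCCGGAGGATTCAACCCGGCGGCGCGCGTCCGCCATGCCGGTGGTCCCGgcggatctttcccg
These read as pieces of 28S rRNA from general knowledge, the first of them on the minus strand. No rRNA sequence was at hand to align them with, so the name is background and not a result.

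AC113316.1, annotated as a miRNA of 82 bases at chr5:147072579-147072660 (+) in an intron of Cdk8, overlaps the start of the chromosome 5 stretch. It had 3049, 6559, 9747 and 4921 CPM with RiboMinus and 74.1 CPM with Ribo-Zero. With each position counted once it was no longer called. In the Cdk8 intron sequence outside small RNAs, 58.2 to 71.3% of the RiboMinus tags lay in a single bin of 100 bases. The intron value of Cdk8 was 26.4, 48.1, 149 and 95.1 RPKM against 1.99 RPKM, and it too was not called with each position counted once.

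A block of 6 windows on chromosome 17 (39980000 to 39985999) shares all 4 flanking genes with RefSeq's Rn18s-rs5, a copy of the 18S rRNA. It had 6520.3, 11725, 9160.2 and 5914 CPM with RiboMinus and 1097 CPM with Ribo-Zero. Together with a stretch on chromosome 15 (111 to 258 CPM against 3.01 CPM), these 5 stretches took 4.18, 8.88, 11.0 and 5.51% of the RiboMinus libraries and 0.169% of the Ribo-Zero library. Leaving the 5 stretches out of the CPM scale, an alternative chosen after seeing the data, raised the lower calls of protein-coding genes from 866 to 1203.

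Of 63 unannotated windows of 1 kb over 20 CPM, 23 were called lower and 8 higher with Ribo-Zero. The 10 lowest held 38.9 to 58.3% of all unannotated RiboMinus tags and 0.966% of the unannotated Ribo-Zero tags. The windows called higher had modest levels. One on chromosome 7 at 19886000 had 0.457 to 1.42 CPM against 62.6 CPM, one on chromosome 13 at 21292000 had 0 to 0.914 CPM against 45 CPM, and one on chromosome 6 at 136752000, beside the histone gene Hist4h4, had 0.945 to 2.74 CPM against 56.8 CPM. Such windows passed the filter through Ribo-Zero alone. Others, such as one on chromosome 3 at 61963000 (42.1 to 54.4 CPM against 0.0216 CPM), passed through RiboMinus alone. Their calls were fixed, so the counts of windows describe these libraries only.

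Protein-coding genes were compared over merged exons. Of 22367 genes, 9201 had a mean of both kits over 3 RPKM. With Ribo-Zero 536 (5.83%) were called higher and 866 (9.41%) lower. The Ribo-Zero value was above all 4 RiboMinus libraries in 2492 genes, below all 4 in 4619 and inside their range in 2090, with a median log2 difference of -0.35 (quartiles -0.96 and 0.34). The median range of the 4 RiboMinus libraries was 0.64 on the same scale.

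The balance of the calls depended on the scale. With CPM computed over tags in protein-coding exons, 11829 genes were over the filter, of which 900 were higher and 925 lower. Centred on the median of -0.35, 1003 were higher and 331 lower, and without the 5 stretches 435 were higher and 1203 lower. One library also mattered, since 1810 genes were called lower without FH1 Nijmegen. The 22 genes with the widest separation named below kept their call under each of these settings. They were picked for a log2 distance of 2.33 or more from the nearest library. Small shifts of scale could not undo such calls, so keeping them gives no support.

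Among the genes with the largest distance above the RiboMinus range, the calnexin gene Canx, a chaperone of the endoplasmic reticulum, had 8.01, 6.0, 10.8 and 7.28 RPKM with RiboMinus and 87.3 RPKM with Ribo-Zero. The value was above all 4 libraries in 40 of 41 exon bins of 100 bases. Arf4, a GTPase of the secretory pathway, had 2.35, 2.44, 2.22 and 1.83 RPKM against 29.4 RPKM. Tcp1, a subunit of the chaperonin that folds tubulin and actin, had 2.35, 3.27, 4.73 and 2.24 RPKM against 37.8 RPKM. By the rule that named them, these and the following genes lay outside the RiboMinus range.

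Bag1, a cochaperone of Hsp70, had 2.12, 6.5, 6.09 and 2.11 RPKM against 47.3 RPKM. Ndufa2, a subunit of respiratory complex I, had 0.893, 3.45, 4.73 and 1.77 RPKM against 44.1 RPKM. Lin7c, a polarity scaffold, had 1.36, 2.12, 2.63 and 1.04 RPKM against 22.8 RPKM, and Gltscr2, a nucleolar protein of ribosome assembly, 0.912, 0.294, 0.402 and 0.904 RPKM against 12.0 RPKM.

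The widest separation of a full-length gene was in Hist4h4, a replication-dependent H4 histone gene of 312 bases, with 4.54, 42.5, 34.1 and 3.0 RPKM against 839 RPKM. Its RiboMinus values fell into a high and a low pair that crossed the preparation names, FH2 Vienna-IMP with FH1 Nijmegen and FH1 Vienna-IMP with FH2 Nijmegen. Gm16721 (33 exon bases) and Gm11016 (48 exon bases) had no RiboMinus tag and 57.7 and 11.3 RPKM with Ribo-Zero, at least 5.1-fold and 1.45-fold higher over the floor, and rest on 88 and 25 Ribo-Zero tags. Rps2, a ribosomal protein gene, had 4.65, 3.0, 4.1 and 4.87 RPKM against 38.4 RPKM, but 95.7% of its Ribo-Zero tags lay in a small-RNA gene within its exons. On bases of its own it had 1.9 to 3.37 RPKM against 1.79 RPKM, below all 4 and so opposite to its call.

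Among the genes farthest below the range, Stmn2, a microtubule regulator of growing neurites, had 284, 177, 236 and 403 RPKM with RiboMinus and 22.6 RPKM with Ribo-Zero, 7.84-fold below the lowest RiboMinus library and below all 4 in 19 of 19 exon bins. Cdk5r2, an activator of the neuronal kinase Cdk5, had 22.1, 24.1, 15.3 and 27.0 RPKM against 1.39 RPKM. Npdc1, expressed in differentiating neurons, had 74.7, 55.3, 29.8 and 54.4 RPKM against 3.86 RPKM.

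Others served general functions. Atf6b, a sensor of endoplasmic reticulum stress, had 90.2, 70.3, 52.2 and 68.9 RPKM against 7.22 RPKM. Ap1s1, a subunit of a clathrin adaptor, had 109, 66.3, 78.6 and 129.7 RPKM against 10.6 RPKM. Eif4ebp2, a brake on cap-dependent translation, had 42.3, 44.3, 41.0 and 34.6 RPKM against 5.26 RPKM. Also far below were C1qtnf6 (21.9 to 60 against 3.17 RPKM), Ctxn1 (58.8 to 111 against 10.5 RPKM), Rasl10b (36.6 to 89.5 against 6.27 RPKM), the ATP synthase subunit gene Atp5k (13.2 to 21.3 against 1.79 RPKM) and Sln, an inhibitor of the muscle calcium pump (23.1 to 34.6 against 3.78 RPKM).

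At the edge of the call, Golm1 (4.95 to 6.78 against 14.6 RPKM) was just called higher and Med13 (6.5 to 7.38 against 15.7 RPKM) just not. Tmem107 (4.57 to 8.22 against 1.79 RPKM) was just called lower and Tmem88 (5.54 to 8.3 against 2.27 RPKM) just not.

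**Figure D3:**
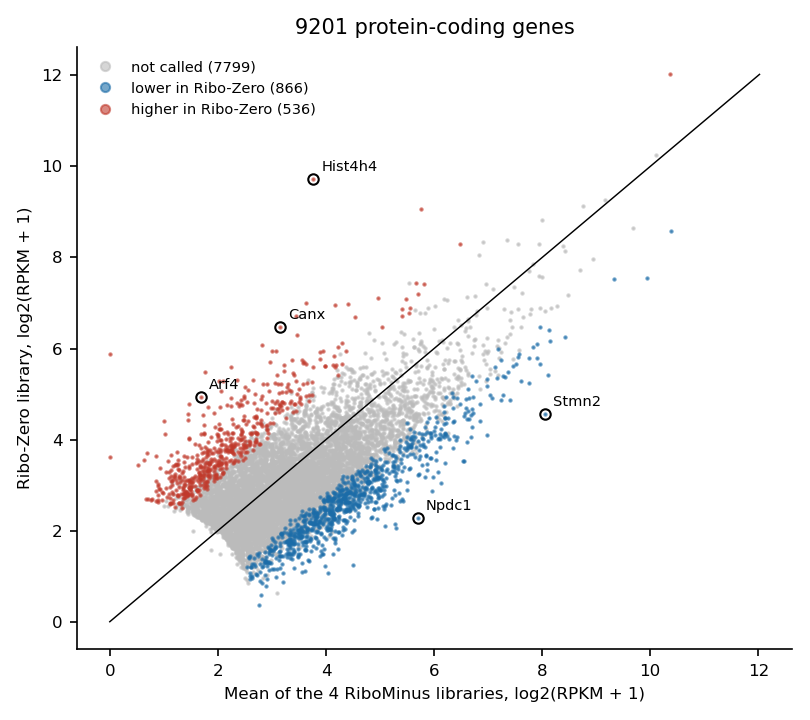
Level of each of the 9201 protein-coding genes with Ribo-Zero (y axis) against the mean of the 4 RiboMinus libraries (x axis), both as log2(RPKM + 1), with the line of equal values. The 536 genes called higher are red, the 866 called lower blue, and 5 of the named genes are circled, with Hist4h4 farthest above the line and Stmn2 far below it.

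Called genes differed from the rest in base composition, length and level. In the 322 genes with at most 40% GC in their exons the median log2 difference was 0.29, with 10.6% higher and 0.311% lower calls. It moved through 0.12, -0.11, -0.49 and -0.91 in steps of 5 percentage points to -1.06 in the 550 genes over 60% GC, with 1.45% higher and 23.6% lower calls. By exon length the median was -0.89 in 352 genes of over 500 to 1000 bases and 0.23 in 1036 genes over 8000 bases. By mean level of both kits it was -0.19 in 5785 genes of over 3 to 10 RPKM, with 5.95% higher and 5.53% lower calls. In the 86 genes over 100 RPKM it was -0.99, with 6.98% higher and 29.1% lower calls. The GC gradient was present at fixed length. Among genes of over 2000 to 4000 bases the median went from 0.02 at 40% GC or less to -1.21 over 60% GC. At 50 to 55% GC the median went from -0.86 at over 500 to 1000 bases to 0.04 over 8000 bases. Short genes and those of high GC did not follow this. The 93 genes of up to 500 bases had a median of -0.02, and over 60% GC the medians were 0.50 up to 500 bases, -0.70 at over 500 to 1000 bases and -1.07 at over 4000 to 8000 bases.

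The RiboMinus libraries differed among themselves along the same axis. The median deviation of FH1 Nijmegen from the mean of the 4 went from 0.09 at the lowest GC to -0.46 at the highest, and that of FH1 Vienna-IMP from 0 to 0.23. FH1 Nijmegen was also the RiboMinus library most like Ribo-Zero, with a Pearson correlation of log2(RPKM + 1) of 0.703 over 9201 genes, against 0.543, 0.63 and 0.569 for FH1 Vienna-IMP, FH2 Vienna-IMP and FH2 Nijmegen. Correlations among RiboMinus libraries were 0.889 to 0.959. These are descriptions across genes that share the libraries and carry no test. The part of base composition, of the sequencing machine and of the fragment sizes of the locations in the differences between the kits was not tested.

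**Figure D4:**
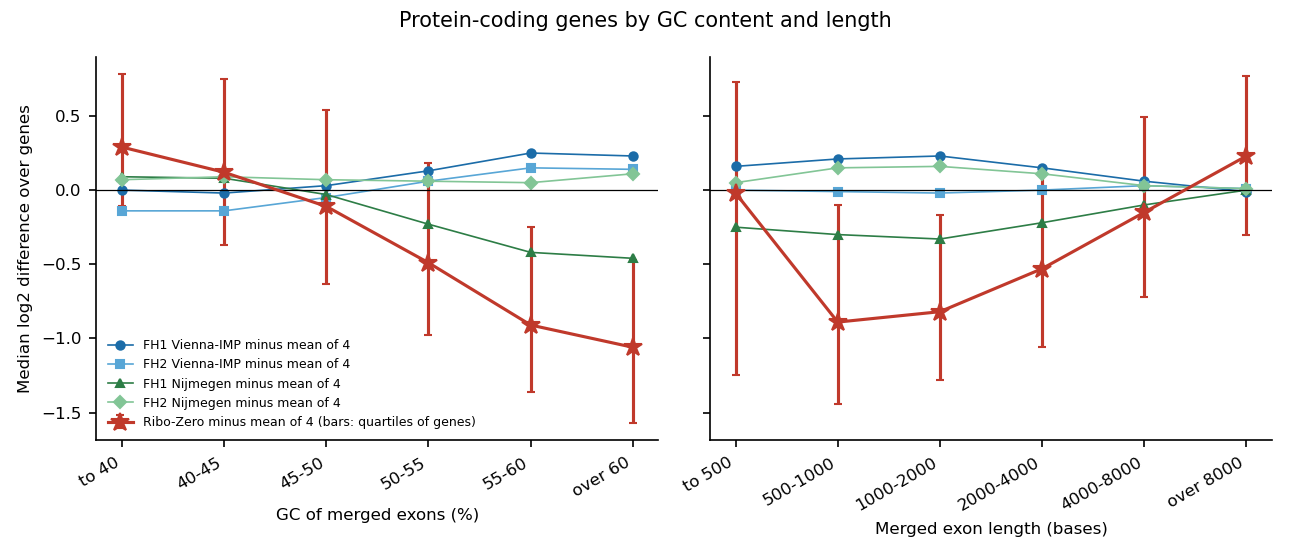
Median log2 difference from the mean of the 4 RiboMinus libraries, in bins of GC percent (left) and length (right) of merged exons, for the Ribo-Zero library (stars, bars show the quartiles over genes) and for each RiboMinus library. The Ribo-Zero medians go from 0.29 to -1.06 with GC and from -0.89 to 0.23 with length above 500 bases, and FH1 Nijmegen reaches -0.46 at the highest GC.

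Gene groups were described by counts and medians, against 5.83% higher and 9.41% lower calls and a median of -0.35 over all 9201 protein-coding genes. Replication-dependent histone mRNAs, which end in a stem-loop in place of a polyA tail, had 6 of 54 genes higher and 0 lower with a median of 0.53, and summed to 3562 to 3792 RPKM with RiboMinus and 5926 RPKM with Ribo-Zero. Beside Hist4h4, Hist1h1a had 29.1, 93.0, 82.9 and 35.1 RPKM against 532 RPKM and Hist1h4k 9.09, 5.86, 22.1 and 13.5 RPKM against 128 RPKM. Hist1h2ah, Hist1h2bl and Hist1h1d were the other 3 called. Both when centred and on the scale of protein-coding exons 14 histone genes were called higher, and with positions counted once 4 of 53 were, with a median of 0.30. The group had a median GC of 59.5% and a median length of 527 bases, near the edge of length bins. All protein-coding genes of 55 to 60% GC had a median of -0.12 up to 500 bases (24 genes) and -1.11 at over 500 to 1000 bases (121 genes), and those over 60% GC 0.50 (37 genes) and -0.70 (48 genes).

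Nuclear genes of oxidative phosphorylation had 4 of 70 genes higher and 13 lower with a median of -0.83, beside 5.83% and 9.41% of all genes. Centred, 6 were higher and 8 lower. Their median GC was 50.8% and their median length 1265 bases. All genes of 50 to 55% GC and over 1000 to 2000 bases had a median of -0.72, with 3.69% called higher and 16.1% lower. Cox8a (206, 137, 104 and 194 RPKM against 30.5 RPKM) and Cyc1 (211, 141, 106 and 201 RPKM against 40.8 RPKM), of complexes IV and III, were lower, while the ATP synthase subunit gene Atp5a1 (25.3, 32.4, 39.7 and 26.0 RPKM against 137 RPKM) was higher. Cytoplasmic ribosomal protein genes had 6 of 56 higher and 7 lower with a median of -0.21, which turned to 0.14 when all genes were centred. By median GC (50.7%) and length (1692.5 bases) they lie in the same bin, whose median was -0.72. On exon bases of 1 gene alone 0 of 53 were higher and 7 lower, with a median of -0.36. Rpl38 (9.24 to 18.2 against 1.72 RPKM) and Rps26 (9.44 to 35.9 against 2.56 RPKM) were lower.

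Neuron genes split. Beside Stmn2, the transcription factor genes Neurod1 (7.2 to 11.1 against 2.28 RPKM) and Tbr1 (8.1 to 9.91 against 2.51 RPKM) were lower, while the neurofilament genes Nefl (2.04 to 4.33 against 32.7 RPKM) and Nefm (2.71 to 4.58 against 13.2 RPKM) were higher, 2 of 17 higher and 3 lower with a median of -0.41. The lower neuron genes were 2 when centred and 5 without the 5 stretches. The neuron group had a median GC of 45.8% and a median length of 5027 bases. All genes of 45 to 50% GC and over 4000 to 8000 bases had a median of 0.05, with 8.96% higher and 2.59% lower. Neural progenitor genes had 2 of 13 higher, Fabp7 (6.05 to 19.5 against 77.2 RPKM) and Nes (5.46 to 8.11 against 32.8 RPKM), and 1 lower, Lhx2 (28.9 to 74.1 against 11.0 RPKM), with a median of -0.54. Centred, 0 progenitor genes were lower, and with positions counted once 4 were. The progenitor group had a median GC of 53.7% and a median length of 2481 bases. All genes of 50 to 55% GC and over 2000 to 4000 bases had a median of -0.59, with 3.42% higher and 9.71% lower. On exon bases of 1 gene alone Nefl was the 1 neuron gene called higher, and Nefm was not called.

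Skeletal muscle genes split as well, with 4 of 19 higher and 4 lower and a median of -0.72, beside 5.83% and 9.41% of all genes. When centred 1 was lower, and with positions counted once 2 were. The muscle group had a median GC of 53.8% and a median length of 1618 bases. All genes of 50 to 55% GC and over 1000 to 2000 bases had a median of -0.72, with 3.69% higher and 16.1% lower. The long genes Ttn (4.41 to 5.74 against 16.4 RPKM) and Myh3 (8.34 to 12.0 against 42.0 RPKM) were higher, and Mylpf (109 to 259.5 against 48.3 RPKM) and Actc1 (122 to 292 against 58 RPKM) were lower. Stratified epithelium had 2 of 11 higher (Dsp and Cdh1) and 2 lower (Krt1 and Krt10) with a median of 0.11. Cartilage and bone had 2 of 17 higher (Ibsp and Col11a1) and 1 lower (Spp1) with a median of 0.10. By median GC and length, the epithelial and the cartilage and bone groups lay at 50 to 55% GC and over 2000 to 4000 bases. All genes of that bin had a median of -0.59. Centred, the epithelial group had 0 lower and the cartilage and bone group 3 higher and 0 lower, so that Krt1, Krt10 and Spp1 lost their calls. With positions counted once the sign of both medians turned, to -0.14 and -0.18, and 1 epithelial gene was higher.

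Lens crystallins had 0 of 13 higher and 3 lower, and 12 were below all 4 RiboMinus libraries, with a median of -1.29. Their median GC was 56.5% and their median length 997 bases, and all genes of 55 to 60% GC and over 500 to 1000 bases had a median of -1.11 with 21.5% called lower. Cryga, for example, had 91.3, 77.0, 41.2 and 79.6 RPKM against 17.8 RPKM. Immediate early genes, which respond to stimulation within minutes, had 0 of 11 higher and 6 lower with a median of -1.57, among them Ier2 (46.6, 39.3, 16.4 and 33.9 RPKM against 5.77 RPKM). Centred on all genes, 1 crystallin and 1 immediate early gene were called lower, and with positions counted once 6 crystallins were. The immediate early group had a median GC of 54.9% and a median length of 2490 bases. All genes of 50 to 55% GC and over 2000 to 4000 bases had a median of -0.59, with 9.71% lower. Blood had 1 of 10 higher, the adult globin gene Hbb-b2 (68.6 to 117 against 312 RPKM), and a median of 0.39, and 0 higher with positions counted once. Of the choroid plexus genes 1 of 4 was lower, Ttr (121 to 204 against 41.3 RPKM), and of the macrophage genes 1 of 8, C1qb. Endothelial genes had no call in 10 genes and a median of -0.41, and the 3 sex-linked genes over the filter had no call and a median of -0.02. Centred, 1 gene of either group was higher, and with positions counted once 2 endothelial genes were lower. The RNA samples were different biological replicates, so the share of each tissue in them and the kit cannot be told apart.

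**Figure D5:**
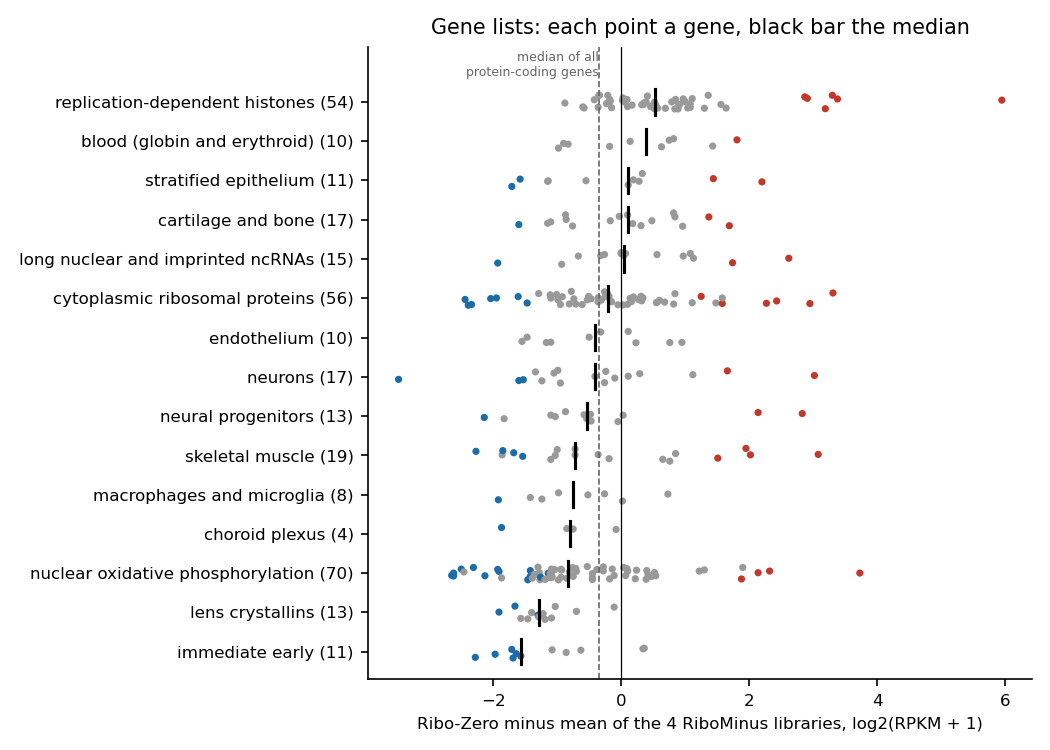
Log2 difference, Ribo-Zero minus the mean of the 4 RiboMinus libraries on log2(RPKM + 1), of each gene over the filter in the listed groups (points, red where called higher and blue where called lower, numbers of genes in brackets) with the group's median (black bar) and the median of all protein-coding genes (dashed line, -0.35). Histones lie highest with a median of 0.53 and immediate early genes lowest with -1.57, and neuron and muscle genes spread over both sides.

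Of 3845 long non-coding genes, 430 were over 3 RPKM, of which 23 (5.35%) were called higher and 36 (8.37%) lower, with a median log2 difference of -0.31. The counts were 48 and 44 on the scale of protein-coding exons (772 genes tested), 39 and 18 when centred, and 20 and 51 without the 5 stretches. Without FH1 Nijmegen 69 were lower. H19, an imprinted fetal RNA, had 215, 297, 238 and 230.2 RPKM with RiboMinus and 1498 RPKM with Ribo-Zero, 5.04-fold over the highest RiboMinus library and above all 4 in 22 of 23 exon bins. Its difference held on bases of its own. Malat1, a nuclear RNA of speckles, had 309 to 458 RPKM against 811 RPKM, above all 4 without being called. Xist was 8.62 to 12.0 against 21.9 RPKM, and Meg3 23.3 to 33.7 against 16.8 RPKM.

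In host genes of snoRNAs much of the Ribo-Zero value lay in the small RNAs. Snhg1 had 14.9, 29.5, 13.2 and 12.2 RPKM with RiboMinus and 300.5 RPKM with Ribo-Zero, but 97.2% of the Ribo-Zero tags lay in its snoRNA genes, and on its own bases it had 13.2, 10.8, 13.7 and 13.1 RPKM against 10.5 RPKM, below all 4. Snhg12 had 2.31 to 9.27 against 39.6 RPKM in all and 1.94 to 6.53 against 16.2 RPKM on its own bases. All Ribo-Zero tags of Gm12238 (0 to 5.05 against 83.7 RPKM) lay in a small-RNA gene. Of long non-coding genes with a small-RNA gene in their exons 6 of 23 (26.1%) were called higher, against 17 of 407 (4.18%) without one. For protein-coding genes these were 18 of 154 (11.7%) and 518 of 9047 (5.73%). Ccdc107, whose exons overlap RNase_MRP, had 927 to 2036 against 4159 RPKM. It was chosen after its values were seen.

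Gas5, another snoRNA host, had 7.05 to 10.3 against 30.3 RPKM, Gm17504 2.99 to 4.92 against 28.0 RPKM and Gm16096 0 to 1.13 against 8.46 RPKM. SNORD75 lies in an exon of Gas5, so snoRNA tags count towards Gas5. Its value on bases of its own is not given here, so a change of the host cannot be told from that of its snoRNAs. Gm17504 shares all its exon bases with other genes, and on the 44.5% of its own Gm16096 had 0 in RiboMinus and 0.875 RPKM with Ribo-Zero. Lower long non-coding genes were Gm20463 (11.5 to 15.5 against 1.77 RPKM), 1810058I24Rik (11.0 to 22.6 against 2.22 RPKM), Gm17178 (30.7 to 55.1 against 7.64 RPKM), Gm17041 (5.23 to 11.8 against 0.813 RPKM), Gm12841 (22.2 to 37.8 against 5.82 RPKM) and Gm13375 (19.1 to 38.4 against 4.99 RPKM). Without strand, tags on shared bases cannot be given to either gene. Gm20463 and Gm17041 have 0% own bases, Gm17178 has 0.56% with no tag, and Gm12841 has 28.1% with 0 RPKM in all 4 RiboMinus libraries against 0.455 RPKM, too few tags at the RiboMinus depth to give a direction, while 1810058I24Rik and Gm13375 share none. Of the long nuclear and imprinted RNAs listed, 2 of 15 were higher (H19 and Gas5) and 1 lower (Snhg11, 11.0 to 14.3 against 2.44 RPKM), with a median of 0.04. Centred, 5 were higher and the median was 0.35, and the median was -0.03 without the 5 stretches and -0.01 with positions counted once.

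Introns differed from exons over all those tested, but they were kept at lower levels, and introns over 3 RPKM had a median near that of exons. Of 18837 protein-coding genes with at least 500 intron bases, 9329 were over 0.3 RPKM. In these the Ribo-Zero value was above all 4 RiboMinus libraries in 4552 and below all 4 in 1441, with a median log2 difference of 0.13. Calls were few, 22 higher (0.236%) and 58 lower (0.622%). On the scale of protein-coding exons they were 125 and 63 (11656 introns tested), centred 14 and 81, and without FH1 Nijmegen 44 and 102. The pseudocount of 1 RPKM weighs on introns, whose levels are low, and with 0.1 RPKM 258 were higher and 197 lower.

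In 7534 genes compared in both, the difference of introns exceeded that of exons in 5117 (67.9%), by a median of 0.41. In 471 genes with exons called higher the median intron difference was 0.32 and 2 had introns called higher, and in 712 with exons called lower it was -0.16 and 32 had introns called lower. Over all 7534 genes tested in both, the median intron difference was 0.13, and 0.236% of all introns tested were called higher and 0.622% lower. The pseudocount weighs on these intron differences and calls as well. Of the introns tested 6297 had 0.3 to 1 RPKM, of which 2 were called higher and 0 lower.

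The introns called higher included those of Rbm15, an RNA-binding protein of the m6A machinery (1.21, 0.935, 1.12 and 0.719 RPKM against 5.1 RPKM), Rnf146 (0.633 to 0.776 against 3.3 RPKM), Ino80e (0.0802 to 0.319 against 2.08 RPKM), Ube2m (0 to 1.05 against 4.75 RPKM) and Gm5506 (0 to 0.367 against 2.37 RPKM). All intron tags of Gm5506 lay in 1 of 12 bins, and it was not called with positions counted once. Below the range, beside Cdk8, were introns of Cyc1 (11.8 to 20.4 against 2.59 RPKM), whose exons were lower too, Traf4 (8.4 to 15.7 against 1.73 RPKM), Zfp36l1, a protein that destabilises AU-rich mRNAs (41.2, 29.8, 36.7 and 41.7 RPKM against 8.26 RPKM, below all 4 in 21 of 21 bins), and Tmem147 (9.93 to 17 against 2.46 RPKM). Among introns over 3 RPKM, the level asked of exons, the median was -0.40, with 44 of 404 (10.9%) called lower and 6 (1.49%) higher. Exons of protein-coding genes had a median of -0.35, with 9.41% lower and 5.83% higher.

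The difference between the preparations named FH1 and FH2 did not have the same direction in both locations. The log2 ratio of FH1 to FH2 at Vienna-IMP and at Nijmegen had a Pearson correlation of -0.496 (Spearman -0.492) over 7826 genes, and the smallest SD of a log2 ratio between locations was that of FH1 Vienna-IMP to FH2 Nijmegen (0.34, against 0.473 to 0.573 for the other 3 pairs). In genes called lower, the median log2 difference of FH2 minus FH1 was -0.32 at Vienna-IMP and 0.53 at Nijmegen. No direction with the number of depletion rounds was therefore drawn, and the cause was not tested. The study regards a fetal head lane, by lane order FH1 Vienna-IMP, as a probable technical outlier in tag composition. Without FH1 Vienna-IMP 549 protein-coding genes were higher and 869 lower, 180 and 15 small-RNA genes, and the intron share differed by 9.49 points.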

How the data were processed

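Tag positions of the 5 libraries were used as deposited. The authors aligned tags to mm9 with Bowtie, allowing 2 mismatches (RiboMinus) or 3 (Ribo-Zero), after removal of tags matching rRNA (both kits) and mitochondrial RNA (RiboMinus only), and kept tags with 1 place in the genome, 1 line each. Versions are not given in the sources used here, and splice junctions were not aligned. The other columns deposited by the authors carry no per-tag value and were not used.

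Tag midpoints were counted in merged exons, introns (without exon and small-RNA bases of any gene) and small-RNA genes of GENCODE M1. CPM and RPKM were computed from these counts and all unique tags outside the mitochondrial chromosome. Genes were kept when the mean of the RiboMinus mean and the Ribo-Zero value exceeded 3 RPKM (exons), 0.3 RPKM with at least 500 bases (introns) or 1 CPM (small RNAs), and log2 values carry a pseudocount of 1 RPKM. A gene was called when Ribo-Zero lay a factor of 2 beyond the nearest RiboMinus library. Counts of 0 in all RiboMinus libraries were given a floor of 3 pooled tags. Depth was 1597887 to 2188956 tags with RiboMinus and 46226046 with Ribo-Zero, so RiboMinus sets the precision. Shares were compared with exact permutation tests.

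By distance from the nearest library, the 12 highest and 12 lowest protein-coding genes, 6 and 6 long non-coding genes, 10 and 10 small-RNA genes and 5 and 5 introns were named, with examples of each list. Some of them are not reported here. Other small RNAs, such as Scarna2, Snord22 or Mir675, and the unannotated windows were picked for their level after their values were seen. Members and lists were chosen with earlier results of these data known. Of a list of 23 structural small RNAs, 0 names were in the annotation. RefSeq names were matched by flanking genes. Alternatives were other pseudocounts, filters, scales, folds, positions counted once, Ribo-Zero tags drawn to 2009038, tags whose first 36 bases occur once in mm9, libraries left out, locations alone, unshared exon bases and limma, which assumes the lone library to vary like the others. Scripts were tested on simulated data. The tools were limma 3.58.1 (R 4.3.3), pandas 2.3.3, scipy 1.17.1, numpy 2.4.6 and matplotlib 3.10.9 (Python 3.11.15).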

Additional observations from a re-analysis of the deposited data

Results flagged for a closer look

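In 7 of 79 sets of 4 RiboMinus values examined, 1 library stood apart from the other 3 by Dixon's ratio at its 95% limit, where chance gives about 1 in 20. Ctxn1 had 58.8 RPKM in FH1 Nijmegen and 103 to 111 in the others. Snhg1 had 29.5 RPKM in FH2 Vienna-IMP and 12.2 to 14.9 in the others. The U4 copies had 0.457 and 0.914 CPM in FH2 Vienna-IMP, from 1 and 2 tags, and 0 in the others, and the 7SK copy in Ncam2 had 9.14 CPM there and 3.13 to 3.78 in the others. The introns of Gm5506 had 0.367 RPKM in FH1 Vienna-IMP, from 1 tag, and 0 in the others. Those of Ino80e had 0.0802 RPKM in FH1 Vienna-IMP and 0.31 to 0.319 in the others.

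The Ribo-Zero library held 2200005 tags on the mitochondrial chromosome, which entered only an alternative scale, and the RiboMinus libraries 0. With such tags in the scale 473 protein-coding genes were higher and 993 lower, in place of 536 and 866. Mitochondrial tags were removed by the authors before alignment in RiboMinus libraries only, so the levels of mitochondrial RNA cannot be compared between the kits.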

How the results depend on the processing

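Named features lost their call in 27 values under an alternative, 19 of them at a fold of 4. Leaving out libraries or a location only narrows the RiboMinus range, so calls kept there were fixed by construction. The rest were Gm12841 (once counted positions and drawn depth), AC113316.1, the 7SK copy in Ncam2 and the introns of Gm5506 and Cdk8 (once counted positions), and the 7SK copy in Zswim5 and Mir433 (another pseudocount). On exon bases of 1 gene alone, Rps2 fell below the filter, Gm11016 has no such bases, and long non-coding genes were not in that alternative. On such bases Rps2 and Snhg1, called higher, lay below all 4 RiboMinus libraries. Both turned direction and are not among the 27. When centred, 3 small-RNA genes called higher were called lower.

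Counts moved with the scale, and the number of features over the filter moved too. On the scale of protein-coding exons 11829 protein-coding genes, 772 long non-coding genes and 11656 introns were tested, in place of 9201, 430 and 9329. Without a filter 3023 long non-coding genes were tested. For protein-coding genes, 536 higher became 900 on the scale of protein-coding exons, 1003 when centred, 61 at a fold of 4 and 981 with limma, and 866 lower became 331 when centred, 35 at a fold of 4, 2034 against the Vienna-IMP libraries alone and 1780 with limma (adjusted p under 0.05, too small since its spread comes from 4 libraries of 2 preparations). With a library left out they were 549 to 653 and 869 to 1810. For long non-coding genes, 23 higher became 43 without a filter, 48 on the exon scale, 39 when centred, 5 at a fold of 4 and 39 against Vienna-IMP, with 24 to 31 when a library was left out. There, 36 lower became 58 with another pseudocount, 18 when centred, 1 at a fold of 4, 55 with positions counted once, 94 against Vienna-IMP and 60 against Nijmegen, with 40 to 69 when a library was left out. For small RNAs, 177 of 293 genes higher became 433 of 1996 without a filter, where the median fell from 3.89 to 0.5. Centred, 42 were higher, and 180 to 185 were with a library left out. Lower calls went from 14 to 22 without a filter, 91 when centred, 6 at a fold of 4 and 30 against Vienna-IMP (15 to 18 with a library left out). For introns, 22 higher became 258 with another pseudocount, 125 on the exon scale, 14 when centred, 0 at a fold of 4, 36 at drawn depth, 57 against Vienna-IMP and 45 against Nijmegen (27 to 44 with a library left out). There, 58 lower became 197 with another pseudocount, 1 at a fold of 4, 134 with positions counted once, 99 at drawn depth and 133 against Vienna-IMP (61 to 102). The highest counts with a library left out were those without FH1 Nijmegen for lower genes of both kinds and for introns. Fewer RiboMinus libraries give a narrower range and so more calls. The excess of the intron share was 8.08 to 12.0 points under the alternatives run for it, which leave out the scale without the 5 stretches (9.49 to 11.6 with a library left out), and that of the small-RNA share was 0.252 points with positions counted once, at a ratio of 2.45 in place of 2.43 (2.26 to 2.65 with a library left out). The ratio of 2.43 includes the many RiboMinus tags of AC113316.1. The causes were not tested.

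No paired analysis was possible because the Ribo-Zero group is 1 library. RiboMinus depth limits values near 0, and the 1 Ribo-Zero library gives no replicate error.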

Other observations

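One unannotated window on chromosome 6, at 109729000, separated the locations and not the preparations. It had 3.31 and 5.94 CPM in the Vienna-IMP libraries, 481 and 344 CPM in the Nijmegen libraries, and 0 with Ribo-Zero. It was picked after its values were seen.

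The galectin gene Lgals1 had 741 to 1264 RPKM with RiboMinus and 186 RPKM with Ribo-Zero. The transcription factor gene Sox11, of immature neurons, had 5.82 to 17 RPKM against 103 RPKM, and Marcks, a substrate of protein kinase C, 10.5 to 26.6 RPKM against 123 RPKM. These 3 genes were picked for their level after their values were seen.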
